A study of Mus musculus with 8 samples.

Results

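Interleukin-1 (IL-1) and Toll-like receptors share one signalling route in skin cells. Il1r1 binds IL-1 together with its co-receptor Il1rap, the adaptor Myd88 joins the receptor tails, and the kinases Irak4 and Irak1 or Irak2 are recruited and pass the signal to the ubiquitin ligase Traf6, which leads to activation of NF-κB. Irak3, also called IRAK-M, is a pseudokinase of the same family that is best known as a brake on this route in monocytes and macrophages. Nfkbia (IκBα) and Tnfaip3 (A20) are inhibitors of NF-κB and are themselves NF-κB target genes, so that they form negative feedback. Keratinocytes carry this pathway and answer epidermal injury and microbes through it.

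These 10 genes (Il1r1, Il1rap, Myd88, Irak4, Irak1, Irak2, Irak3, Traf6, Nfkbia and Tnfaip3) were selected by gene symbol, and all 10 were present among the 23861 genes of the hair follicle stem cell (HFSC) table and the 16231 genes of the epidermal stem cell (EpdSC) table. All 10 also passed the filter on low counts that left 14422 HFSC genes for testing. Irak3 was singled out because its HFSC count differed between the genotypes, so that difference is described here without a test.

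The libraries were bulk RNA-seq of cells sorted from dorsal skin in telogen, the resting phase of the hair cycle, with 2 libraries in each of 4 groups. HFSCs were sorted as CD34+CD49f+Sca-1- cells from WT mice of 2 months and Msx2-KO mice of 6 months. EpdSCs, labelled as epidermal progenitor cells, were sorted as CD34-CD49f+Sca-1+ cells from WT and Msx2-KO mice, all of 6 months. The Msx2-KO mice were homozygous for a germline allele with a neo cassette inserted in the gene, and no group received a treatment. In HFSCs age and genotype differed together and cannot be told apart. The submitted library names also split by genotype, with the prefix YC in WT HFSCs and Ch in Msx2-KO HFSCs. In EpdSCs all names began with Ch, but their numbers formed separate runs for WT and Msx2-KO. The paper names mice from a commercial supplier, matched for hair cycle, as WT controls. The labels give no batch, so the part of handling or mouse source in the genotype differences was not tested in either cell type. The labels do not say whether the libraries of a group came from separate mice, so p-values measure the spread between these libraries only.

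HFSC libraries held 3132974 to 11016659 counts, and the EpdSC values were deposited after normalization, so that their depth is unknown. The libraries labelled Msx2-KO stood apart from WT beyond these genes. Only 11749 and 14616 genes were above 0 in the Msx2-KO HFSC libraries, compared with 22867 and 20229 in WT, and the Msx2-KO pair correlated at 0.58 across genes, compared with 0.93 for the WT pair. Mitochondrial rRNA took 49.4% and 53.2% of the Msx2-KO HFSC counts and 8.94% and 36.3% of the WT counts. In EpdSCs it took 0.073% and 6.18% in Msx2-KO and 23.5% and 16.4% in WT. Msx2 itself was counted 40 and 18 times in Msx2-KO HFSCs and 53 and 7 times in WT HFSCs. Its EpdSC values were 150 and 22.2 in Msx2-KO and 58.5 and 85.4 in WT, so this gene does not check the labels in either cell type. All 10 HFSC markers were detected in HFSCs, with Krt15 the highest of them in each library, and all 10 EpdSC markers in EpdSCs. The basal keratin Krt14 had 71869 and 84155 in WT EpdSCs against 392157 and 275191 in Msx2-KO. The suprabasal keratin Krt10 had 158740 and 107937 against 16336 and 30738, above Krt14 in both WT libraries.

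The promoters are shown first, because the pathway ends in NF-κB and its inhibitors among the 10 genes are its targets. RefSeq promoters (GRCm38.p6) of 250 bases before each annotated start matched all 10 genes by symbol. The κB consensus, searched on both strands, was present in promoters of Il1r1, Irak1, Nfkbia and Tnfaip3. It was present in 7.25% of all 32851 promoters of this length. The matches are printed 5′ to 3′ on the strand of the gene, with the κB letters in capitals and up to 10 bases on each side:
Nfkbia, chr12:55492657-55492686, minus strand: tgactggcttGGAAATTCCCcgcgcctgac
Tnfaip3 upstream match, chr10:19015516-19015545, minus strand: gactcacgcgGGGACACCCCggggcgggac
Tnfaip3 downstream match, chr10:19015411-19015432, minus strand: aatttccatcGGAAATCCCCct
Irak1, chrX:74023920-74023949, minus strand: agggcggcgcGGGACGCCCCcgtgtggcgg
Il1r1, the downstream of 2 promoters, chr1:40266344-40266373, plus strand: cagggattttGGAATGCCCCcaaggagatg

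The Nfkbia match began 29 bases before the start. The pair of Tnfaip3 matches lay in 1 promoter and began 125 and 12 bases before the start. The Irak1 match reads as κB on both strands, and both annotated Irak1 promoters hold it. Neither annotated Irak3 promoter held the κB letters, nor did those of Irak2, Irak4, Myd88, Traf6 and Il1rap. The homeobox core TAATTG, searched on both strands as a motif of the kind that MSX2 binds, was in no promoter of the 10 genes and in 7.17% of all promoters. A match is a description of the letters, not of binding, and the absence of one refers to this window alone. The promoter of Irak3 that lies directly before the start of the gene, chr10:120202131-120202380 on the minus strand, is shown because Irak3 carries the largest positive fold change among the 10 genes in HFSCs:
Irak3 promoter: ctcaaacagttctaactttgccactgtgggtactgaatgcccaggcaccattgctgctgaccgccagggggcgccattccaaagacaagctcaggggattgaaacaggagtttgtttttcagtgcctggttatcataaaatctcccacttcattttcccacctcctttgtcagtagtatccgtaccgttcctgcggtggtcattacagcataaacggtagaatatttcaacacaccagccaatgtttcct

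Irak3 (ENSMUSG00000020227.10) lies on the minus strand of chromosome 10 from 120141648 to 120202130 in GRCm38. The HFSC counts were 28 and 11 in WT against 309 and 87 in Msx2-KO. After TMM normalization, which scales for library size and composition, these were 20.8 and 19.8 normalized counts in WT against 187 and 103 in Msx2-KO. Both Msx2-KO libraries were well above both WT libraries, which lay close together. The means were 20.3 ± 0.716 (SD, n = 2) and 145 ± 59.8 (SD, n = 2), a 7.15-fold ratio, and the log2 fold change was 2.83. This log2 fold change was between 2.01 and 3.19 in every alternative fit, the lowest being the one scaled by library totals and the highest the one that left out Msx2-KO replicate 2. Leaving out Msx2-KO replicate 1 gave 2.30. All of these fits use the counts on which Irak3 was chosen, so their shared direction is not support for the difference.

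In EpdSCs, where all mice were of the same age but library names still split by genotype, Irak3 did not show this pattern. Its normalized values were 235 and 331 in WT against 241 and 246 in Msx2-KO, and both Msx2-KO values lay within the WT range. The log2 fold change was -0.20 with a standard error of 0.49, with an adjusted p of 0.783 (limma). The HFSC and EpdSC tables were normalized separately, and their difference in genotype effect was not tested.

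**Figure D1:**
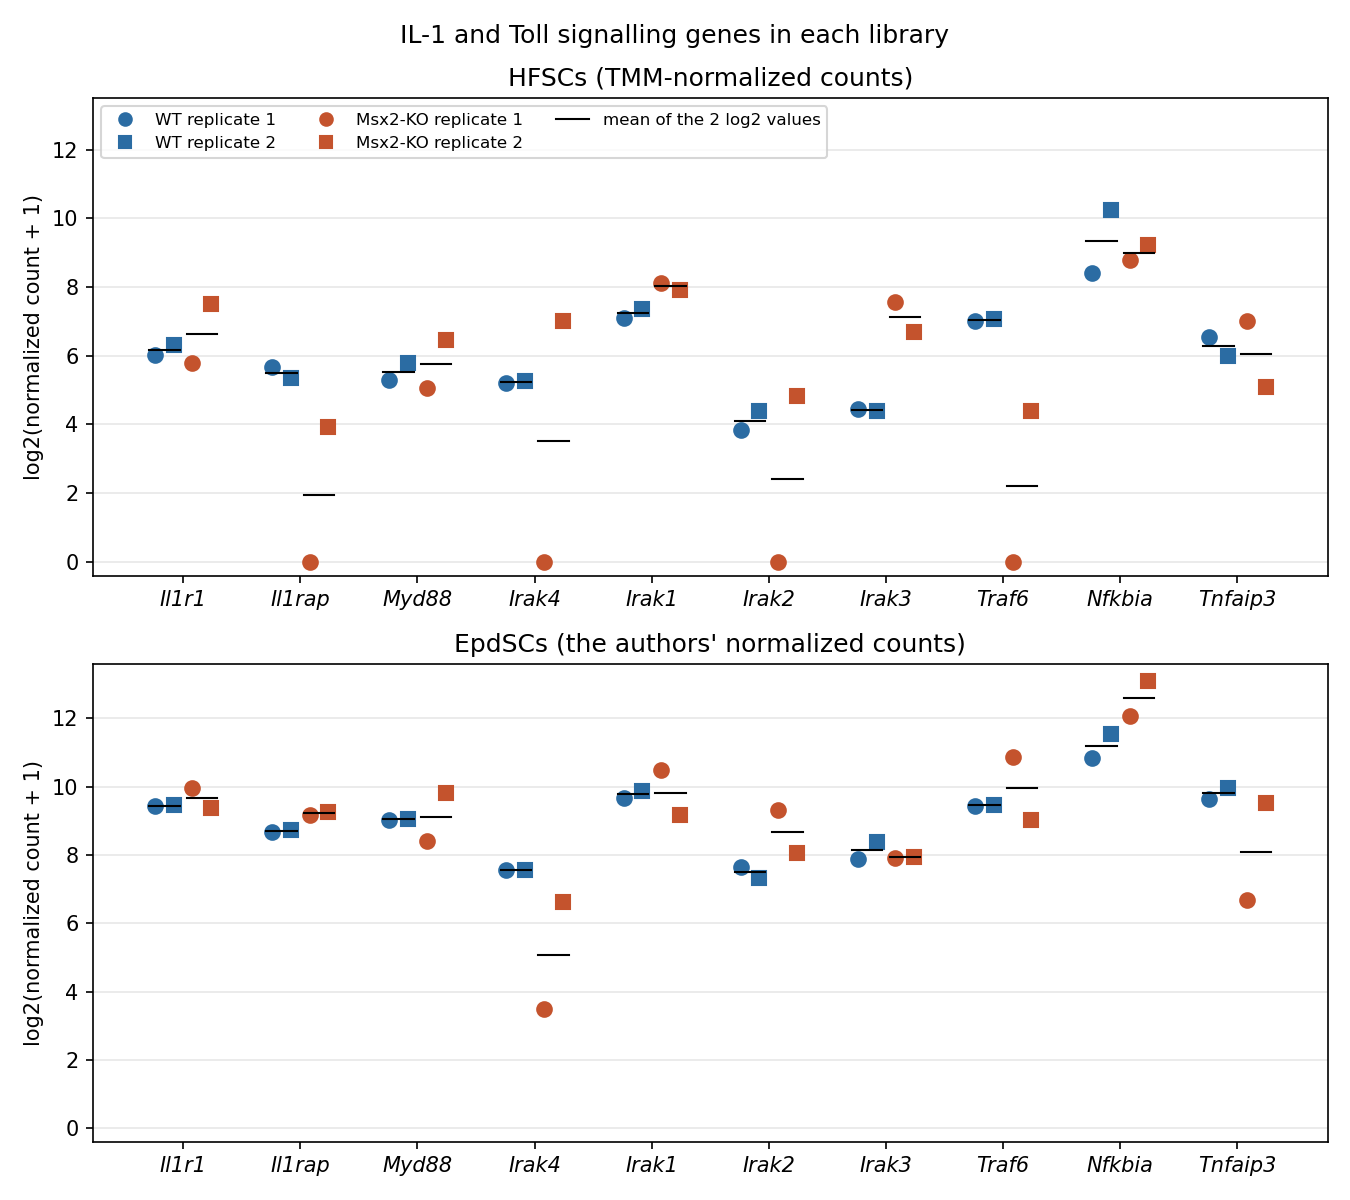
Normalized counts of the 10 genes in each of the 8 libraries, on a log2(value + 1) scale, with HFSCs above and EpdSCs below. Circles are replicate 1 and squares replicate 2, blue is WT and red Msx2-KO, and black lines are means of the log2 values. Irak3 separates the genotypes in HFSCs (20.8 and 19.8 in WT, 187 and 103 in Msx2-KO) and not in EpdSCs, and Il1rap, Irak4, Irak2 and Traf6 are at 0 in Msx2-KO HFSC replicate 1.

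The make-up of the IRAK family was compared within each library on normalized counts per kilobase of exon, a measure that does not depend on the scaling between libraries. Irak3 formed 12.6% and 10.3% of the IRAK signal in WT HFSCs and 46.3% and 25.3% in Msx2-KO HFSCs. In EpdSCs its share was 20.1% and 24.9% in WT against 12.8% and 25.02% in Msx2-KO, which overlapped. Irak1 held the largest share in each of the 8 libraries, from 45.04% to 66.6%. Irak4 formed 15.9% and 14.4% in WT HFSCs, 0% in the first Msx2-KO library and 23.2% in the second, so the Msx2-KO libraries lay on either side of WT. In EpdSCs the Irak2 share was 14.1% and 10.03% in WT against 27.9% and 22.6% in Msx2-KO, while the Irak4 share was 11.8% and 10.2% in WT against 0.397% and 7.33% in Msx2-KO. Both differences in share had groups that did not overlap, but shares were not compared with a background. By level, 27.8% of all EpdSC genes were higher and 44.5% lower in both Msx2-KO libraries. In HFSCs the Irak1 share was 64.7% and 66.6% in WT against 53.7% and 46.0% in Msx2-KO. The Irak2 share in HFSCs was 6.77% and 8.61% in WT against 0% and 5.57% in Msx2-KO. These HFSC shares did not overlap between the genotypes either, but they are tied to the Irak3 share. By level Irak1 was higher in both Msx2-KO HFSC libraries (137 and 164 in WT, 278 and 240 in Msx2-KO). In the first Msx2-KO library Irak2 and Irak4 were at 0, which raises the other shares there.

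**Figure D2:**
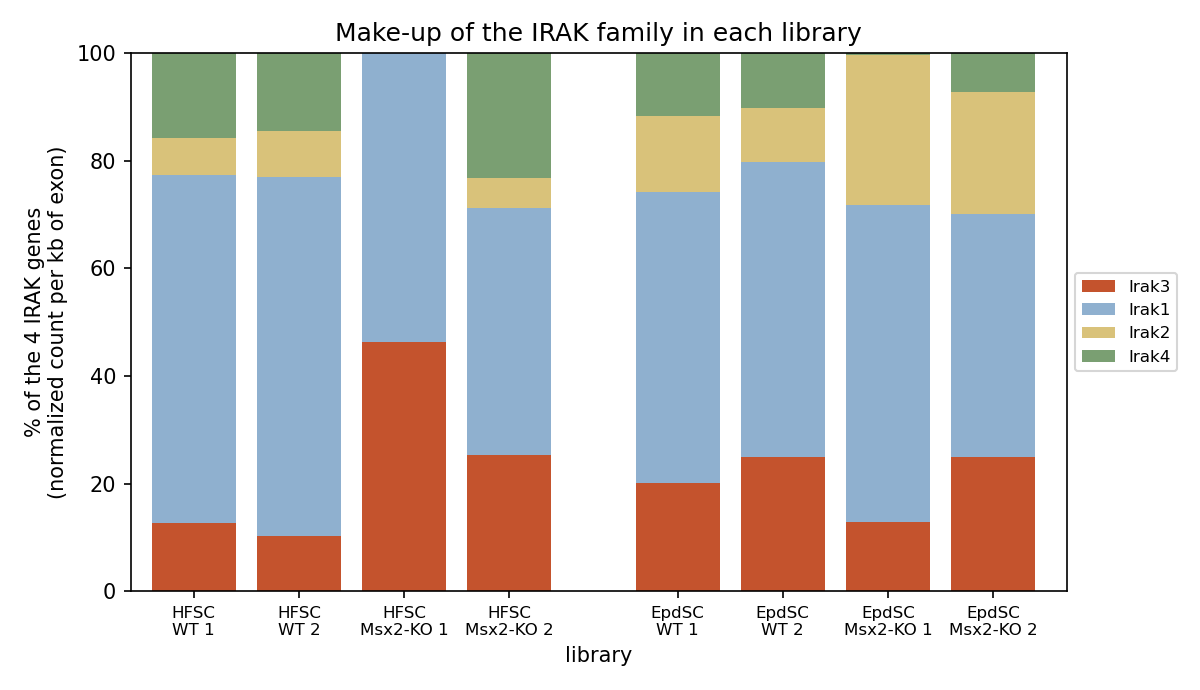
Share of Irak3, Irak1, Irak2 and Irak4 in the summed normalized counts per kilobase of exon of the family, in percent, for each of the 8 libraries. Irak3 (red) takes 46.3% and 25.3% in the Msx2-KO HFSC libraries and 10.3% to 12.6% in WT HFSCs, and 12.8% to 25.02% in the EpdSC libraries.

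On the same per-kilobase scale, Irak3 was the eighth of the 10 genes in WT HFSCs, with 5.52 ± 0.195 normalized counts per kilobase (SD, n = 2), between Irak4 with 7.31 ± 0.298 and Il1rap with 3.93 ± 0.634. Its values did not overlap those of either neighbour. Nfkbia was the highest in WT HFSCs with 480 ± 379, followed by Irak1 with 31.8 ± 4.05, Myd88 with 17.8 ± 4.41 and Traf6 with 16.5 ± 0.546. Il1r1 with 11.3 ± 1.61 and Tnfaip3 with 10.7 ± 2.85 came next, and Irak2 was lowest with 3.76 ± 1.03. Myd88 and Traf6, Il1r1 and Tnfaip3, and Il1rap and Irak2 were neighbours whose values overlapped. In Msx2-KO HFSCs Irak3 stood at 39.4 ± 16.3, behind only Nfkbia with 320 ± 67.7 and Irak1 with 54.9 ± 5.76 by the mean. In WT EpdSCs Nfkbia was again highest (1477 ± 496) and Il1rap lowest (36.3 ± 0.909), and Irak3 was the seventh with 77.0 ± 18.5. Myd88 (204 ± 4.50), Irak1 (185 ± 19.2), Tnfaip3 (124 ± 19.2) and Il1r1 (109 ± 0.556) lay above it. So did Traf6 (88.3 ± 1.70), whose values fell within those of Irak3, while Irak2 (40.6 ± 6.08) and Irak4 (37.2 ± 0.254) lay below.

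Of the 9 genes other than Irak3, 0 passed the thresholds in HFSCs, an adjusted p under 0.05 and a fold change over 2 (edgeR, quasi-likelihood). The background was 0.0% of the 14422 genes, although 2614 of them (18.1%) had an unadjusted p under 0.05. DESeq2 called 690 genes (4.78%) and limma-trend 1407 (9.76%), and neither called any of these 9 genes. Irak3 was not counted in any of these fits. Leaving out Irak3, which was chosen on this difference, 1 of the other 9 genes was higher in both Msx2-KO libraries than in both WT libraries (Irak1), compared with 17.5% of all genes. Another 2 were lower in both (Il1rap and Traf6), compared with 33.5% of all genes, and the remaining 6 overlapped. The median log2 fold change of these 9 genes was 0.066 and that of all genes -0.14. With Irak3 included it was 0.23. Fewer cells of a type and less RNA per cell cannot be told apart in such bulk samples.

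The receptor Il1r1 had 64.6 and 79.1 normalized counts in WT HFSCs against 53.9 and 181 in Msx2-KO, on either side of WT. Its log2 fold change was 0.70 with an adjusted p of 0.801 (edgeR). The co-receptor Il1rap had 49.8 and 39.6 in WT against 0 and 14.2 in Msx2-KO, so that both Msx2-KO libraries were lower. Its log2 fold change was -2.67 with a standard error of 2.31, with an adjusted p of 0.707 (edgeR). Standard errors in HFSCs were derived from the test statistic and are approximate.

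The adaptor Myd88 had 37.9 and 53.9 normalized counts in WT HFSCs against 32.7 and 87.4 in Msx2-KO, and the groups overlapped (adjusted p of 0.929, edgeR). Irak4, the kinase that acts first, had 35.6 and 37.8 in WT against 0 and 129 in Msx2-KO. The Msx2-KO libraries thus bracketed WT by a wide margin (adjusted p of 0.944, edgeR). Irak1 had 137 and 164 in WT against 278 and 240 in Msx2-KO, higher in both Msx2-KO libraries. It had the smallest standard error of the 10 genes, 0.33 around a log2 fold change of 0.79, and still did not pass (adjusted p of 0.345, edgeR), and with scaling by library totals its log2 fold change was -0.019. Irak2 had 13.4 and 19.8 in WT against 0 and 27.2 in Msx2-KO, and the groups overlapped (adjusted p of 0.980, edgeR).

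Traf6, the ubiquitin ligase on which the IRAK kinases converge, had 127 and 133 normalized counts in WT HFSCs against 0 and 20.1 in Msx2-KO. Both Msx2-KO libraries were far below the close WT pair, with a log2 fold change of -3.73 and a standard error of 2.09 (adjusted p of 0.502, edgeR). Leaving out Msx2-KO replicate 1 gave -2.71, and leaving out replicate 2 gave -10.27, where the Msx2-KO library kept was at 0. Without WT replicate 1 it was -3.73, and without WT replicate 2 it was -3.74. In each of those fits the spread comes from the genotype that keeps both libraries, so only the effect sizes are given. The inhibitor Nfkbia had 342 and 1205 in WT against 439 and 593 in Msx2-KO, and the WT libraries lay farther apart than the genotypes (adjusted p of 0.802, edgeR). Tnfaip3 had 92.1 and 62.9 in WT against 129 and 33.1 in Msx2-KO, again overlapping (adjusted p of 0.988, edgeR).

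The 4 genes at 0 in Msx2-KO HFSC replicate 1 (Il1rap, Irak4, Irak2 and Traf6) shared this with many others. Of the 7436 tested genes whose WT mean lay between those of Irak2 (16.6) and Traf6 (130), 30.4% were at 0 in that library and 17.3% in Msx2-KO replicate 2, compared with 0.094% and 0.013% in the WT libraries. A count of 0 in Msx2-KO replicate 1 allows up to 1.82 normalized counts (3 counts, counting error only). The part of these zeros in the differences of the 4 genes was not tested. Irak3 and Irak1 were the members above WT in both Msx2-KO HFSC libraries.

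**Figure D3:**
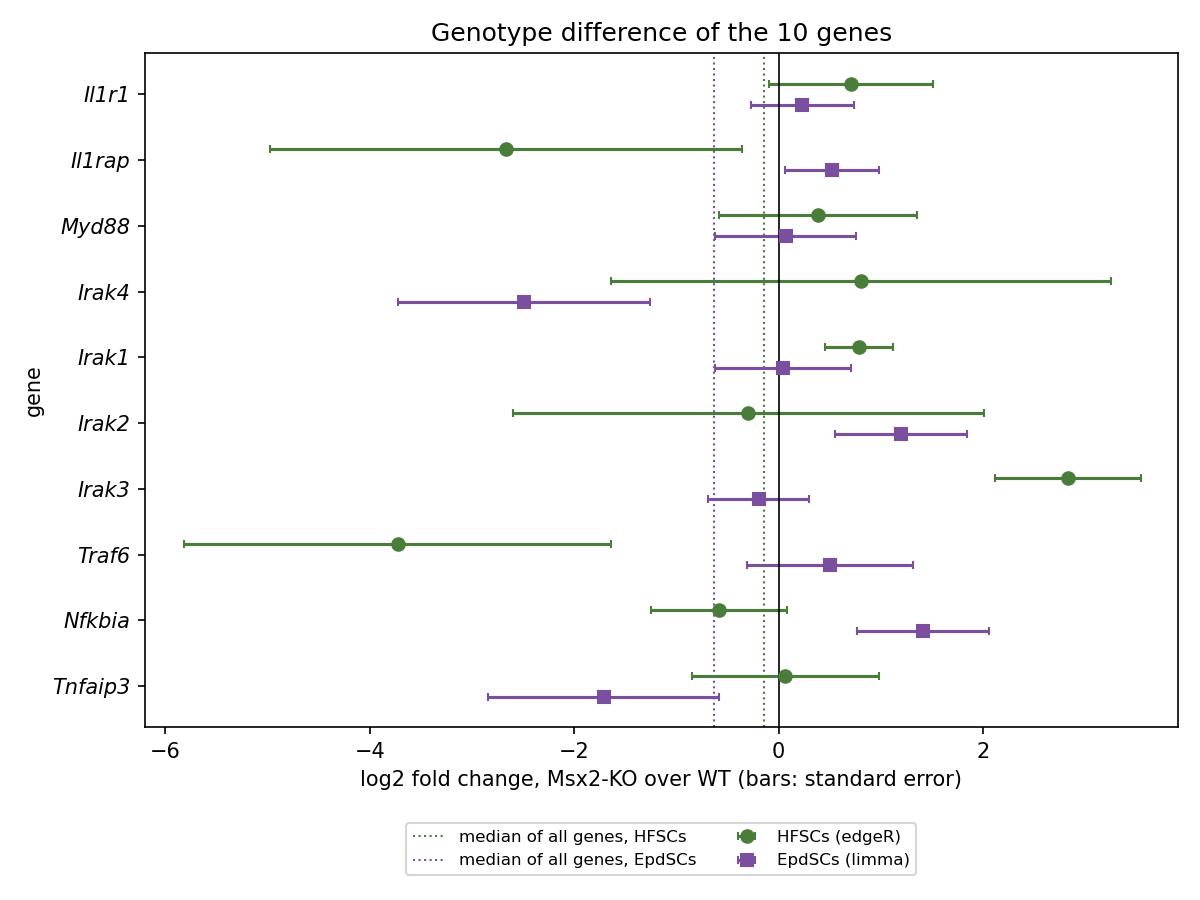
Log2 fold changes of the 10 genes, Msx2-KO over WT, in HFSCs (green circles) and EpdSCs (purple squares), with bars of 1 standard error and dotted lines at the median of all genes (-0.14 in HFSCs, -0.64 in EpdSCs). The HFSC bars were derived from the edgeR test statistic and are approximate, and that of Irak3 is not read as a test. Irak3 in HFSCs lies at 2.83, and the bars of Il1rap, Irak4, Irak2 and Traf6 in HFSCs, each with a library at 0, are the widest, above 2.

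In EpdSCs 0 of the 10 genes passed the same thresholds (limma on log2 values), compared with 9.35% of the 16231 genes, of which 1.57% were higher and 7.78% lower in Msx2-KO. None had an unadjusted p under 0.05, against 35.3% of all genes. Irak2, Il1rap and Nfkbia were higher in both Msx2-KO libraries, compared with 27.8% of all genes, and Irak4 and Tnfaip3 lower in both, compared with 44.5%. The median log2 fold change was 0.15 for the 10 genes and -0.64 for all genes.

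Among the receptors, Il1rap had 405 and 420 in WT EpdSCs against 579 and 609 in Msx2-KO, with both groups narrow. Its log2 fold change was 0.53 with a standard error of 0.46 (adjusted p of 0.437, limma). With mitochondrial and rRNA genes left out and totals made equal, it was -0.010. Il1r1 had 692 and 697 in WT against 997 and 665 in Msx2-KO, which overlapped (adjusted p of 0.755, limma). Myd88 also overlapped, with 517 and 533 in WT against 336 and 901 in Msx2-KO (adjusted p of 0.948, limma).

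Of the kinases, Irak2 had 198 and 160 in WT EpdSCs against 629 and 267 in Msx2-KO. It was higher in both Msx2-KO libraries, at a log2 fold change of 1.20 with a standard error of 0.65 (adjusted p of 0.253, limma). Irak4 had 188 and 186 in WT against 10.2 and 98.4 in Msx2-KO, lower in both, at -2.49 with a standard error of 1.23 (adjusted p of 0.223, limma). Irak1 had 810 and 938 in WT against 1422 and 568 in Msx2-KO and overlapped, as did Traf6 with 687 and 706 in WT against 1869 and 520 in Msx2-KO. For Irak1 and Traf6 one Msx2-KO library lay above both WT libraries and the other below them (adjusted p of 0.964 and 0.666, limma).

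The feedback inhibitors went opposite ways in EpdSCs. Nfkbia had 1814 and 2943 in WT against 4307 and 8764 in Msx2-KO, higher in both, at a log2 fold change of 1.41 with a standard error of 0.64. Its adjusted p of 0.201 was the lowest of the 10 genes (limma). Tnfaip3 had 796 and 992 in WT against 101 and 725 in Msx2-KO, lower in both, at -1.71 with a standard error of 1.13 (adjusted p of 0.325, limma). Neither passed the thresholds.

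The rest of the pathway was read from 7 lists of 86 further genes (ligands, receptors, adaptors and ubiquitin machinery, kinases downstream, NF-κB subunits and inhibitors, negative feedback, and target genes). In HFSCs 49 of them were tested and 0 passed, with 5 higher (17.5% of all genes were) and 18 lower (33.5% of all genes) in both Msx2-KO libraries, and a median log2 fold change of -0.06. DESeq2 called 3 of them and limma-trend 7. The most abundant gene of each list, by the mean over the 4 libraries, was Il1rl2, the IL-36 receptor, among receptors (143 and 119 in WT, 24.2 and 89.7 in Msx2-KO), Peli2, an IRAK-binding ubiquitin ligase, among adaptors (1141 and 906, then 535 and 400), and Tab2, a partner of the kinase TAK1, among kinases (404 and 462, then 432 and 537). Nfkb1, a subunit of NF-κB, had 538 and 468 in WT against 471 and 364 in Msx2-KO. The A20-binding protein gene Tax1bp1 had 1814 and 2606 in WT against 912 and 1458 in Msx2-KO, and the target gene Sod2, a mitochondrial antioxidant enzyme, had 137 and 106, then 228 and 24.8. Il1rl2, Peli2 and Tax1bp1 were lower in both Msx2-KO libraries, and Tab2, Nfkb1 and Sod2 overlapped. No ligand gene passed the HFSC filter on low counts, and of the 10 ligands 3 were in the table.

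By list, the HFSC median log2 fold change was -0.08 over 10 adaptors, 0.05 over 10 kinases, -0.53 over 8 NF-κB genes, -0.68 over 9 feedback genes, -0.19 over 6 target genes and -3.93 over 6 receptors. The receptor median includes 3 genes that were at 0 in both Msx2-KO libraries, and with those genes at their bounds it was -1.64. Some genes were at 0 in a whole group, and they were named after their values were seen. Tlr2, Tlr4 and Tlr5, sensors of bacterial products, the inhibitor gene Nfkbie, the adhesion molecule gene Icam1 and the prostaglandin synthase gene Ptgs2 were at 0 in both Msx2-KO HFSC libraries, a pattern found in 8.20% of all genes tested. Against the mean floor of 3 counts per library, Ptgs2 was at least 47.0-fold lower (75.7 and 176 in WT), Icam1 at least 18.6-fold lower and Tlr4 at least 4.23-fold lower. These bounds cover counting error only, not the many other genes at 0 in the Msx2-KO libraries. Ptgs2, Icam1 and Tlr4 did not pass the thresholds (adjusted p of 0.143 for each, edgeR). Lcn2, an iron-binding defence protein, was the reverse, with counts of 0 and 0 in WT against 89 and 59 in Msx2-KO. By the same kind of bound it was at least 16.2-fold higher, and it did not pass either (adjusted p of 0.143, edgeR). In all, 37 genes (0.257%) had that pattern.

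In EpdSCs 61 of the 86 genes were tested, and 3 passed, 2 of them higher and 1 lower in Msx2-KO, where 9.35% of all genes passed (1.57% higher and 7.78% lower). Il1rn, which encodes the IL-1 receptor antagonist, had 1053 and 1146 in WT against 32577 and 17561 in Msx2-KO. Both Msx2-KO libraries were far above WT, at a log2 fold change of 4.44 with a standard error of 0.56 (adjusted p of 0.0317, limma). Il33, an alarmin of the IL-1 family, rose from 526 and 672 in WT to 5704 and 8875 in Msx2-KO, at 3.58 with a standard error of 0.53 (adjusted p of 0.0405, limma). Sarm1, a TIR-domain NAD hydrolase, fell from 17.3 and 11.4 to 0 and 0.674 (adjusted p of 0.0464, limma), values near the bottom of the table. Il1rn and Il33 were the only ligand genes of the 10 listed that the EpdSC table held. They kept their direction in every alternative, but without either WT library no gene of the table passed, with adjusted p-values of 0.334 to 0.351 for Il1rn and 0.334 to 0.358 for Il33 (limma). Il33 also lost its call at a pseudocount of 0.1 (0.0561) with equal totals (0.0780) and with mitochondrial and rRNA genes left out (0.0908), and Sarm1 at pseudocounts of 0.1 (0.104) and 10 (0.106), as adjusted p from limma.

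Over the 61 EpdSC genes, the called ones included, 20 were higher in both Msx2-KO libraries (27.8% of all genes were) and 20 lower in both (44.5% of all genes), and the median log2 fold change was 0.04. The genes named next had the highest mean over the 4 libraries in their lists. The highest gene of the receptor list was Il1rl2, with 1517 and 1385 in WT against 4105 and 6599 in Msx2-KO (adjusted p of 0.105, limma). Tollip, an adaptor that dampens Toll signalling, had 2093 and 1850 in WT against 6684 and 6462 in Msx2-KO (adjusted p of 0.0956, limma). Zc3h12a (Regnase-1), an RNase that degrades cytokine transcripts, had 412 and 403 in WT against 6865 and 2612 in Msx2-KO (adjusted p of 0.0645, limma). These genes were higher in both Msx2-KO libraries and did not pass. Zc3h12a led its list through the Msx2-KO libraries. In WT the feedback gene Tax1bp1 was higher, with 3293 and 3434, and had 1561 and 1493 in Msx2-KO (adjusted p of 0.171, limma). Tab2 was lower in both (1525 and 1508, then 1039 and 719), and Nfkb1 (2206 and 2279, then 3102 and 1719) and Sod2 (800 and 834, then 1455 and 696) overlapped. The list medians were 0.75 for 11 adaptors, -0.96 for 10 kinases, -0.54 for 10 NF-κB genes, 0.81 for 10 feedback genes, 0.26 for 9 target genes and 0.71 for 9 receptors.

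**Figure D4:**
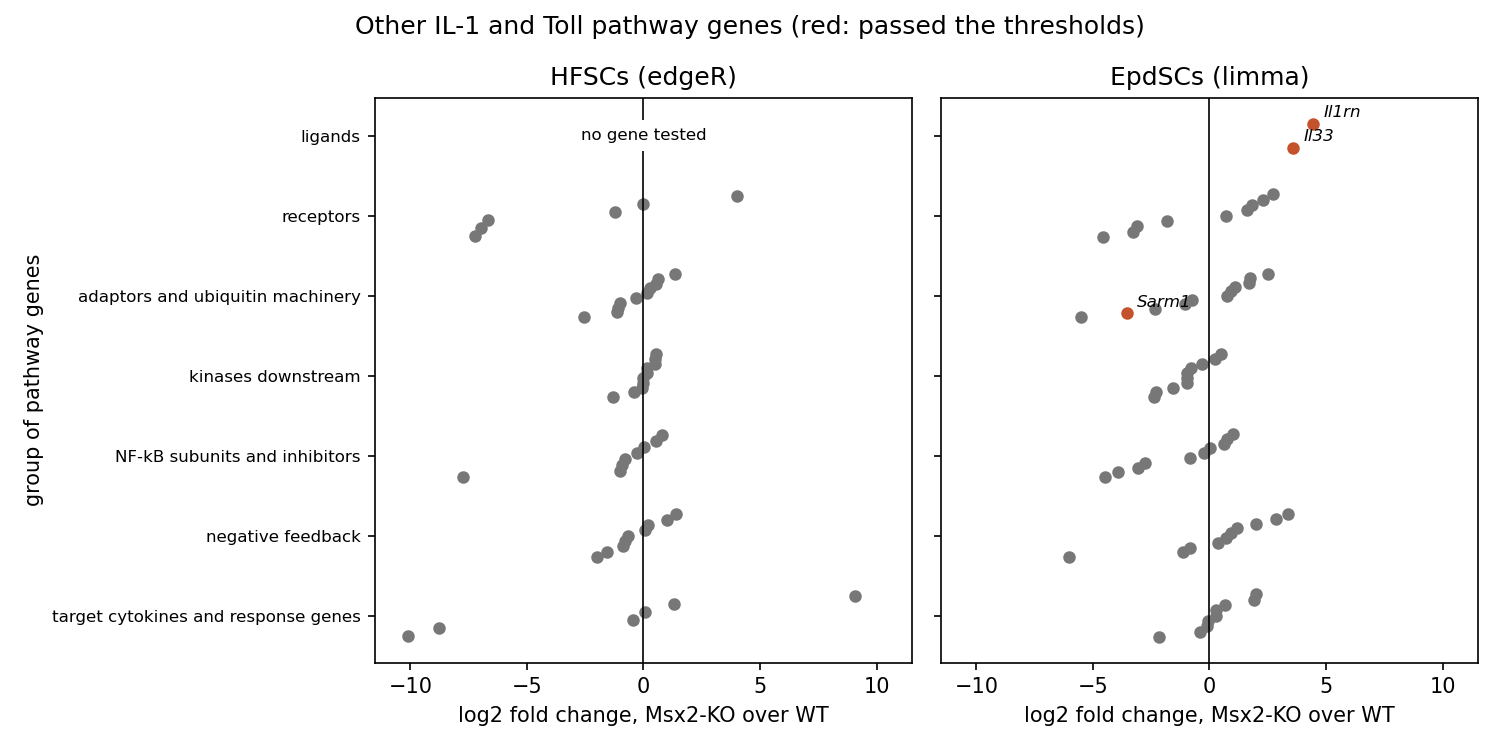
Log2 fold changes, Msx2-KO over WT, of the other pathway genes tested, by list, with 1 point per gene, in HFSCs (left, edgeR, 49 genes) and EpdSCs (right, limma, 61 genes). Red points passed the thresholds, namely Il1rn (4.44), Il33 (3.58) and Sarm1 (-3.54) in EpdSCs and 0 genes in HFSCs. The HFSC points beyond 6 on either side are genes at 0 in both libraries of a group, whose fitted values are not bounds.

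Since Irak3 is best known from monocytes and macrophages, myeloid markers are given beside it. Of 14 such markers 8 were in the HFSC table and 1, Cd68, passed its filter, with 7.43 and 5.39 normalized counts in WT against 0 and 48.4 in Msx2-KO. Msx2-KO replicate 1 had the highest Irak3 value and no Cd68 count, while replicate 2 had an Irak3 value above WT (103) and the highest Cd68 value. Cd68 was near the floor, with 10 and 3 counts in WT. In Msx2-KO replicate 1, 30.4% of genes with a WT mean of 16.6 to 130, above that of Cd68, were at 0. Lyz2, Adgre1, Itgam and Mrc1 had 1 to 10 counts in the WT HFSC libraries and 0 in both Msx2-KO libraries, in which many genes of a higher WT level were also at 0. Cd14 had 14 and 0 counts in WT HFSCs against 0 and 11 in Msx2-KO. In EpdSCs 5 of the 14 were listed, with summed values of 71.5 and 60.5 in WT against 76.3 and 54.7 in Msx2-KO. One of them, the Fc receptor gene Fcgr3, passed, with 12.998 and 17.1 in WT and 0 in both Msx2-KO libraries (adjusted p of 0.0293, limma). Of the 9 EpdSC markers tested in HFSCs, 5 were higher in both Msx2-KO libraries (17.5% of all genes were), namely Krt14, Tfrc, Krt1, Krt10 and Ly6d. The other 4, Krt5, Itga6, Itgb4 and Col17a1, were lower in both (33.5% of all genes). Krt1 and Krt10, keratins of the suprabasal layers, had 114 and 44.96 (Krt1) and 194 and 104 (Krt10) in WT against 1362 and 5279 (Krt1) and 2245 and 9043 (Krt10) in Msx2-KO. Ly6d, a surface protein of differentiating keratinocytes, had 13.4 and 5.39 in WT against 291 and 499 in Msx2-KO. Summed over the markers tested, HFSC markers had 52427 and 49580 in WT HFSCs against 25213 and 27574 in Msx2-KO HFSCs, 8 of 10 lower in both (33.5% of all genes were). In EpdSCs the same list summed to 81906 and 98781 in WT against 243303 and 188374 in Msx2-KO, with Krt15 the highest. There 4 of 8 were higher in both (27.8% of all genes were) and 0 lower in both (44.5%). Of these Postn passed, with 457 and 488 in WT against 10771 and 8326 in Msx2-KO (adjusted p of 0.0281, limma). The part of these cell type differences in the Irak3 result was not tested. Of 4 melanocyte markers tested in HFSCs, Mitf (990 and 1036 in WT, 236 and 194 in Msx2-KO), Tyrp1 and Pmel were lower in both Msx2-KO libraries, and Dct overlapped (58.7 and 113, then 271 and 80.3). The fibroblast markers Col1a1 and Col1a2 summed to 247 and 351 in WT against 150 and 68.5 in Msx2-KO, both lower. Of the Langerhans and dendritic cell markers Epcam, which epithelial cells also express, was lower (437 and 358, then 158 and 248) and Cd74 higher (26.0 and 8.99, then 112 and 57.9) in both. H2-Aa (8 and 1), H2-Ab1 (10 and 1) and Flt3 (3 and 2) had few counts in WT HFSCs, and 0 in both Msx2-KO libraries. In EpdSCs 4 of 6 tested markers of this list, Cd74 among them, were lower in both Msx2-KO libraries (44.5% of all genes were). Another 1, H2-Eb1, was higher in both (27.8% of all genes). In HFSCs the T and NK cell list had 1 tested gene, Ptprc (17.1 and 16.2, then 0 and 0), and the summed endothelial markers overlapped. In EpdSCs 6 genes of the T and NK cell list were tested, 3 lower and 1, Thy1, higher in both Msx2-KO libraries. Ptprc (94.2 and 0 in WT) and Cd3g (131 and 1.90 in WT) were almost confined to WT replicate 1.

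The genes whose pattern over the 8 libraries was most like that of Irak3 were ranked by Euclidean distance on log2 values, each table centred on its own means, among 10593 genes with a mean of at least 20 in both tables. The nearest were Rbm47, an RNA-binding protein gene, at a distance of 0.63, Rpl23a-ps3, a ribosomal protein pseudogene whose reads cannot be separated with certainty from its parent gene, at 0.75, Kntc1, a kinetochore gene, at 0.80, Car12, a carbonic anhydrase gene, at 0.80, and the noncoding RNA gene Lockd at 0.88. The median distance was 4.22. Rbm47 had 46.8 and 30.6 in WT HFSCs against 315 and 188 in Msx2-KO HFSCs, with 138 and 181 in WT EpdSCs against 89.1 and 120 in Msx2-KO EpdSCs. Of the pathway members the closest was Irak1, at rank 517 (2.24), and the farthest was Traf6, at rank 10028 (8.55). Irak2 was below the mean level needed.

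Reads of overlapping genes could affect some of these counts, because whether the authors counted by strand is not given in the sources used here. Exons of Irak3 overlap those of Tmbim4 on the opposite strand over 192 bases, 5.22% of the exon length of Irak3. Tmbim4 had 20.1 and 17.98 normalized counts in WT HFSCs against 104 and 3.54 in Msx2-KO. In Msx2-KO replicate 1 both Irak3 (187) and Tmbim4 were above WT. In replicate 2 Irak3 (103) was above WT and Tmbim4 below it. In EpdSCs Tmbim4 had 117 and 95.8 in WT against 527 and 343 in Msx2-KO, and Irak3 overlapped. Myd88 shares 290 exon bases with Acaa1a (11.3% of its exons) and Irak4 shares 395 with Twf1 (7.87%), both on opposite strands. In HFSCs Acaa1a had 105 and 129 in WT against 118 and 119 in Msx2-KO, and Twf1 had 78.7 and 124 in WT against 80.6 and 69.7 in Msx2-KO. In EpdSCs Acaa1a had 510 and 546 in WT against 17.8 and 141 in Msx2-KO, while Twf1 had 661 and 539 in WT against 814.97 and 2445 in Msx2-KO. Irak4 was at 0 in Msx2-KO HFSC replicate 1, where Twf1 had 80.6, and at 129 in replicate 2, where Twf1 had 69.7. The part of overlapping reads in the counts of Irak3, Myd88 and Irak4 was not tested.

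The other genes lie as follows in GRCm38, each span holding exons and introns. Il1r1 is on chromosome 1 from 40225080 to 40317257, Il1rap on chromosome 16 from 26581704 to 26730117, and Myd88 on chromosome 9 from 119335934 to 119341411. Irak4 is on chromosome 15 from 94543643 to 94581815, Irak1 on chromosome X from 74013914 to 74023918, and Irak2 on chromosome 6 from 113638467 to 113695026. Traf6 is on chromosome 2 from 101678429 to 101701669, Nfkbia on chromosome 12 from 55489410 to 55492647, and Tnfaip3 on chromosome 10 from 19000910 to 19015657. Irak3 and Tnfaip3 thus share a chromosome.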

How the data were processed

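RNA of sorted cells was made into stranded total RNA libraries, and the authors aligned the reads with STAR (version 2.7.3a in the submitters' processing notes) in Partek Flow to GRCm38/mm10 with GENCODE genes. The HFSC table as deposited holds estimated counts that were not normalized, with reads of several genes split between them. For EpdSCs the authors deposited a normalized signal per gene, after a filter on low genes. HFSC counts were rounded, filtered with filterByExpr, scaled by TMM to 5563025 counts per library and tested with edgeR 4.0.16 (quasi-likelihood). The HFSC standard errors are the absolute log2 fold change over the square root of the F statistic of that test, not fitted values. For EpdSCs log2(value + 1) was fitted with limma 3.58.1, so fold changes of low genes are understated. R 4.3.3 and Python 3.11.15 were used, and both designs were run on simulated data. The simulation used lower dispersions (spread between libraries) than the 0.823 fitted in HFSCs. It also had no genes lost from single libraries, so it does not check the HFSC fit under its real spread. In the main fits adjusted p-values are Benjamini-Hochberg over all genes tested, 14422 in HFSCs and 16231 in EpdSCs. DESeq2 also applied its own default filter before adjustment. Calls needed an adjusted p under 0.05 and a fold change over 2. With 2 libraries per group, WT and Msx2-KO were compared within each cell type, and no test was run between the separately normalized tables.

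Beside the 10 genes, the genes named were the pathway genes called and, per list, the most abundant, with the 5 nearest to Irak3, and further genes named after their values were seen. The latter are the genes at 0 in a group, the cell type markers, Tax1bp1 in EpdSCs, the genes overlapping members and the further genes of opposite direction. The members, lists and alternatives were chosen with earlier results of these data known. Gene spans are those of the GENCODE annotation of GRCm38 used here, and sequences are from RefSeq. Columns not mapped to a library numbered 0. The alternatives were DESeq2 1.42.0, limma-trend with a prior count of 3, library totals, RLE factors, mitochondrial and rRNA genes left out, other filters, pseudocounts of 0.1 and 10, a replicate block and each library left out.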

Additional observations from a re-analysis of the deposited data

Results flagged for a closer look

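The differences below are between the log2 fold change (Msx2-KO over WT) in HFSCs and that in EpdSCs, for genes in which both Msx2-KO libraries lay on one side of both WT libraries in HFSCs and on the other side in EpdSCs. The difference between the cell types was not tested in any of them, and the HFSC comparison also differs in age. Each difference sets an edgeR fold change against a limma one, from separately normalized values. Among the 10 genes this held for 1, Il1rap, lower in Msx2-KO HFSCs (-2.67) and higher in Msx2-KO EpdSCs (0.53), a difference of -3.19. Its EpdSC direction turned to -0.010 with mitochondrial and rRNA genes left out. Of the other pathway genes in both tables it held for 6 of 47, compared with 16.5% of the 13151 genes in both fits.

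Il18r1, a chain of the IL-18 receptor, was higher in Msx2-KO HFSCs (counts of 6 and 1 in WT, 120 and 28 in Msx2-KO) and lower in Msx2-KO EpdSCs (110 and 88.2 in WT, 34.4 and 21.6 in Msx2-KO), a difference of 5.81. Tnip1, an A20-binding inhibitor, was higher in Msx2-KO HFSCs (129 and 95.3, then 345 and 242) and lower in EpdSCs (663 and 643, then 0 and 98.4), a difference of 7.42. With an EpdSC value of 0, the size of this difference depends on the pseudocount. Tnip1 passed in neither cell type (adjusted p of 0.171 in HFSCs, edgeR, and 0.172 in EpdSCs, limma). Ikbke, a kinase related to the IκB kinases, differed by 2.88 in the same sense. Its HFSC groups were barely apart (95.1 and 55.7 in WT, 99.4 and 117 in Msx2-KO, log2 fold change 0.51, adjusted p of 0.813, edgeR). Its EpdSC log2 fold change was -2.36. The IL-36 receptor gene Il1rl2 went the other way, lower in HFSCs and higher in EpdSCs, with a difference of -3.05. The ubiquitin ligase genes Itch (-1.61) and Rnf11 (-3.56) had the sense of Il1rl2. Their log2 fold changes were -0.68 in HFSCs and 0.93 in EpdSCs for Itch, and -1.55 and 2.01 for Rnf11.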

How the results depend on the processing

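Irak3 was higher in Msx2-KO HFSCs in every alternative (log2 fold change 2.01 to 3.19). It was chosen on these same counts, so the range shows only how the size depends on the processing. The number of HFSC genes called was 0 with edgeR and moved to 690 with DESeq2, 1407 with limma-trend, 51 with library totals, 2 with at least 10 counts in every library, 231 with the replicate block and 132 to 9272 with 1 library left out. Other HFSC pathway genes called were 3 with DESeq2, 7 with limma-trend and 0 to 25 with 1 library left out, and members called other than Irak3 numbered 0 to 4. In EpdSCs, with 1 library left out, calls numbered 0 (without either WT library) to 10376, pathway calls 0 to 37 and member calls 0 to 4. At a pseudocount of 0.1 there was 1 pathway call and with limma-trend there were 5. Leaving a library out leaves 1 sample in its group, which is assumed to vary like the other group.

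Scaling by library totals moved the HFSC median of all genes from -0.14 to -1.002 and that of the 10 genes to -0.62, with 1 member higher and 4 lower in both Msx2-KO libraries. It reversed Il1r1 (-0.18), Myd88 (-0.46), Irak4 (-0.18), Irak1 (-0.019) and Tnfaip3 (-0.78). Irak4 and Tnfaip3 also reversed with limma-trend (-1.06 and -0.20). With 10 counts required in every library no member was lower in both (0), since Il1rap, Irak4, Irak2 and Traf6 gave no value. With 1 library left out the ranges were -0.65 to 0.69 for the median of the 10 genes, -0.41 to 1.32 for Il1r1, -0.47 to 0.93 for Myd88, -8.45 to 1.79 for Irak4, -7.28 to 0.72 for Irak2, -1.24 to 0.51 for Nfkbia and -1.27 to 0.71 for Tnfaip3.

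In EpdSCs equal totals moved the median of all genes from -0.64 to -0.88 and that of the 10 genes to -0.12, with 1 member higher and 1 lower in both Msx2-KO libraries, and reversed Il1r1 (-0.039), Myd88 (-0.20) and Irak1 (-0.22). Leaving out mitochondrial and rRNA genes as well gave medians of -1.14 and -0.39, 1 higher and 5 lower, and reversed Il1r1 (-0.31), Il1rap (-0.010), Myd88 (-0.47), Irak1 (-0.49) and Traf6 (-0.034). With 1 library left out the ranges were -0.12 to 0.51 for the median, -0.062 to 0.52 for Il1r1, -0.64 to 0.78 for Myd88, -0.62 to 0.71 for Irak1, -0.44 to 0.050 for Irak3 and -0.42 to 1.42 for Traf6. The cause was not tested for any of these.

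Libraries share replicate numbers 1 and 2 by label, but deviations of same-numbered libraries correlated at -0.055 in HFSCs and -0.023 in EpdSCs, so the numbers were not taken as pairs. The replicate block gave 231 calls in HFSCs and 1271 in EpdSCs (1518 without it), reversed Irak4 (-2.17) and Tnfaip3 (-0.21) in HFSCs, and in EpdSCs left Il33 at an adjusted p of 0.0622 and Sarm1 at 0.0676 (limma).

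At 2 libraries in each group, exact permutation cannot go below a two-sided p of 0.333, and depth limits the genes with few counts.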
